A study of Drosophila melanogaster with 6 samples.

Results

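The step from mitotic spermatogonia to meiotic spermatocytes was examined by setting, within each single-cell library, the early spermatocytes against the germline stem cells and spermatogonia (GSCs/spermatogonia). Cells were assigned by the cell type that the authors' deposited annotation gives them, which yielded 1775 early spermatocytes and 450 GSCs/spermatogonia, together 2225 of the 26549 annotated cells. The 6 libraries came from dissected Drosophila testes of 2 genotypes, chinmoST and wild-type. The chinmoST flies carried an allele that lowers the transcription factor Chinmo in the somatic cyst lineage, and their genotype label lists the alleles Sod1[X-39] and e[1] over the balancer TM3, which carries Sb[1] and Ser[1]. The wild-type flies were Oregon R. Each genotype gave 1 library at 3-5 d, 1 at 6-8 d and 1 at 9-11 d of adult age, and each library pooled about 100 pairs of testes from adult males kept at 25 °C, with spermatids filtered out before sequencing. The 3 ages stood as the 3 replicates of a genotype, so every SD below includes age as well as library, and p-values measure only the spread between these 6 libraries.

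In the fly testis, germline stem cells contact the hub and divide into gonialblasts, which amplify as cysts of spermatogonia wrapped by somatic cyst cells. When Bam protein accumulates, mitosis stops and the cells become spermatocytes, which grow and switch on a large testis-specific program under a testis form of the MuvB complex (tMAC) and testis forms of the TFIID subunits (tTAFs). Many transcripts made then are held for use much later, in meiotic division and spermatid differentiation.

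The chinmoST libraries held 130, 452 and 906 early spermatocytes and 49, 211 and 162 GSCs/spermatogonia at 3-5 d, 6-8 d and 9-11 d. The wild-type libraries held 106, 102 and 79 early spermatocytes but only 18, 6 and 4 GSCs/spermatogonia. Transcripts were counted by unique molecular identifier (UMI), summed per library and type, and scaled to counts per 1000000 UMIs (CPM), a share of the sum that carries no information on RNA per cell. The GSCs/spermatogonia sums held 2092950, 4184550 and 9081709 UMIs in chinmoST and 601788, 21736 and 21506 UMIs in wild-type, so that 1 UMI was worth 46.0 and 46.5 CPM in the wild-type sums at 6-8 and 9-11 d. The early spermatocyte sums held 356362, 1231895 and 2090798 UMIs in chinmoST and 552665, 645077 and 312493 UMIs in wild-type. For these reasons the chinmoST libraries are described first and alone, and wild-type values are given separately.

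The annotated early spermatocytes were shallow cells. Their median was 1673, 1390 and 1476 UMIs in the chinmoST libraries, where the median over all kept cells was 2264, 1990 and 1865, and 53.8%, 82.3% and 85.9% of them had less than 2 times the UMIs of the shallowest kept cell. The median GSC/spermatogonium of chinmoST had 38045, 1807 and 63120.5 UMIs, and 0%, 56.4% and 13.0% of them lay under that same limit. Those at 6-8 d were thus shallow too. Gene calls, steps and list medians of chinmoST were therefore also computed on cells with at least 5000 UMIs in both types, called deep cells here (11, 32 and 32 early spermatocytes and 48, 67 and 127 GSCs/spermatogonia), a choice made after the data were seen. Chromosome shares, ratios to the cyst lineage and the comparison with intermediate spermatocytes used all cells. Most chinmoST early spermatocytes lay in 2 of the deposited clusters, with the rest spread over 4 others. Cluster 4 held 108, 218 and 260 of them, with the 5 early spermatocyte markers summing to 1649, 1056 and 1093 CPM. Cluster 9 held 19, 227 and 596, with 982, 614 and 606 CPM of those markers. Markers of later stages were more abundant in cluster 9. Late spermatocyte markers summed to 1065, 1087 and 874 CPM there and to 695, 266 and 429 CPM in cluster 4. Late spermatid markers summed to 1365, 1028 and 1017 CPM in cluster 9 and to 912, 258 and 440 CPM in cluster 4. The source of these transcripts was not tested. Cell barcodes of the 2 types were shared by at most 1 cell between any pair of libraries.

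The marker genes listed here are those that the study used to annotate the cells, so their direction describes the annotation and does not test it. In chinmoST all 5 GSCs/spermatogonia markers past the expression filter (zpg, vas, nanos, bam and aub) were lower and all 5 early spermatocyte markers (Rbp4, wuc, kmg, nht and Taf12L) were higher in early spermatocytes. The 6 GSCs/spermatogonia of wild-type 6-8 d carried markers of both types. Their GSCs/spermatogonia markers summed to 414 CPM, against 20.2 CPM in early spermatocytes of that library, with 6 UMIs of vas in 3 cells. They held no UMI of nanos or zpg, where 0 of 21736 UMIs allow up to 138 CPM. Their early spermatocyte markers summed to 1702 CPM, against 701 CPM in early spermatocytes of that library. In GSCs/spermatogonia of the other libraries these markers summed to 249, 122 and 142 CPM in chinmoST, and to 688 and 651 CPM in wild-type at 3-5 d and 9-11 d. Counts of wild-type calls are given with and without the 6-8 d library, and most other wild-type values by library.

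Below, the step of a gene is the log2 ratio of its CPM in early spermatocytes over GSCs/spermatogonia within a library, with 0.5 UMI added to each count, given as the mean ± SD of 3 libraries. A gene was called higher or lower when it differed at least 2-fold the same way in 3 of 3 libraries of a genotype. Because the 2 types were drawn from these same genes, the step is a description and carries no test. Of 17612 genes, 6209 averaged at least 20 CPM over the 12 sums. In chinmoST, 2266 of these (36.5%) were higher and 437 (7.04%) were lower in early spermatocytes. Deep cells gave 2155 higher and 280 lower genes, of which 2067 and 249 were called with all cells too. The balance depended on scaling. The median step over all genes was 0.73, 0.59 and 0.57 in CPM and -0.38, -0.09 and -0.14 after trimmed-mean scaling (TMM), which moved the calls to 1807 higher and 1306 lower (83.8% of calls higher in CPM, 58.0% with TMM). Steps are given in CPM, and a gene with a step of 0.58 sits at the median of all genes.

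Most genes that regulate the stem cell and spermatogonial stages, among them the switch out of amplification, were lower in early spermatocytes. Of the 9 spermatogonial regulators past the filter, 6 were lower and none was higher in chinmoST, with a list median of -2.11 against 0.58 over all genes. The translational repressor nanos, needed to keep germline stem cells, had 2.81, 24.4 and 26.3 CPM in early spermatocytes and 39.7, 146 and 153 CPM in GSCs/spermatogonia of chinmoST at 3-5 d, 6-8 d and 9-11 d (step -2.78 ± 0.40). The germline gap junction gene zpg had 8.42, 6.49 and 19.6 CPM in early spermatocytes and 246, 98.0 and 80.8 CPM in GSCs/spermatogonia (-3.50 ± 1.34). In both genes every early spermatocyte sum lay below every GSC sum. The switch gene bam had 14.0, 9.74 and 31.1 CPM in early spermatocytes and 41.1, 94.6 and 88.7 CPM in GSCs/spermatogonia (-2.05 ± 1.02), and it lost its call in deep cells, as did the Nanos partner pum (-2.69 ± 0.69). The translational repressors brat (-2.21 ± 0.24) and mei-P26 (-2.11 ± 0.12) changed by similar amounts in all 3 libraries. For bgcn and tut, whose proteins act with Bam, the steps were 0.30 ± 0.41 and -0.42 ± 0.66, neither called.

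Niche response genes moved less. Of the 6 past the filter, the JAK-STAT receptor gene dome (-2.12 ± 1.13) and the BMP receptor gene sax (-1.27 ± 0.29) were lower, and neither held its call in deep cells. Stat92E (-0.74 ± 0.51) and Mad (0.41 ± 0.75), the effectors of JAK-STAT and BMP signals, were not called. The germline level of chinmo itself was 143, 246 and 238 CPM in early spermatocytes and 322, 456 and 477 CPM in GSCs/spermatogonia of chinmoST. Its step of -1.02 ± 0.13 was close to 2-fold in each library and just missed the call. In the cyst lineage of the same libraries chinmo stood at 15.2, 53.2 and 47.2 CPM.

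**Figure D1:**
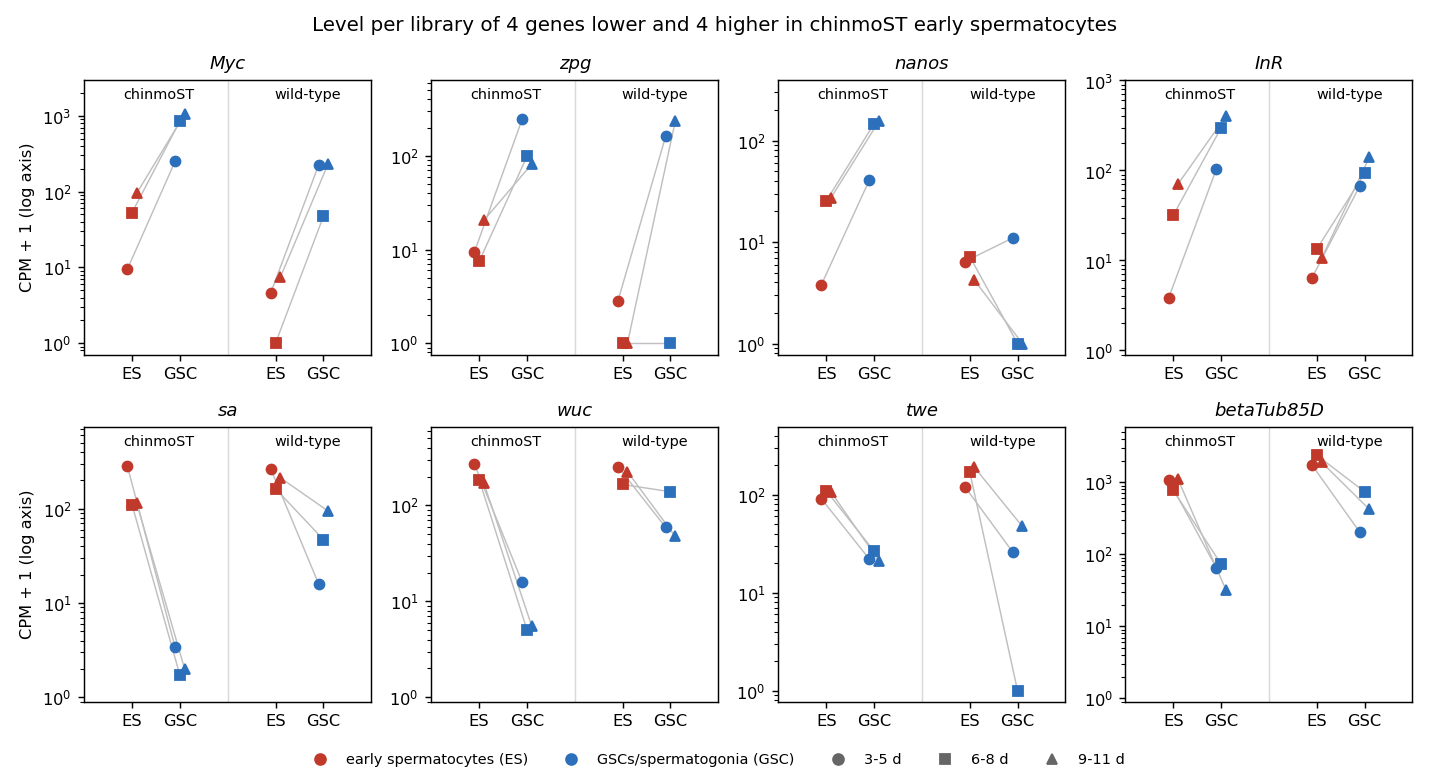
CPM plus 1 (log axis) of 8 genes in early spermatocytes (ES) and GSCs/spermatogonia (GSC), with chinmoST left of wild-type in each panel, 1 marker per library and its shape giving the age. In chinmoST, Myc, zpg, nanos and InR are lower and sa, wuc, twe and betaTub85D are higher in early spermatocytes in all 3 libraries, as in Myc with at most 94.7 CPM in early spermatocytes and at least 251 CPM in GSCs/spermatogonia.

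Growth genes were lower in early spermatocytes. The growth regulator Myc had 8.42, 52.0 and 94.7 CPM in early spermatocytes and 251, 853 and 1058 CPM in GSCs/spermatogonia of chinmoST, and its step of -4.06 ± 0.60 was the lowest of all called genes with at least 100 CPM in GSCs/spermatogonia. Myc was also lower at 3-5 d than later in the cyst lineage (25.8, 173 and 246 CPM), so levels are compared here within a library. The insulin receptor gene InR had 2.81, 30.8 and 69.8 CPM in early spermatocytes and 103, 297 and 402 CPM in GSCs/spermatogonia (-3.46 ± 1.06). Downstream of it, the TORC1 subunit gene raptor (-3.41 ± 0.60) and the ribosomal S6 kinase gene S6k (-2.74 ± 0.71) were lower too. These 3 were the only called members among the 12 insulin and TOR genes past the filter (median -0.81), and all 3 held their calls in deep cells.

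Of 18 nucleolar and growth genes, 12 were lower and none was higher (median -1.53), and 10 of the 12 held in deep cells. Nop60B, the pseudouridine synthase of box H/ACA particles, had 47.7, 86.0 and 92.3 CPM in early spermatocytes and 484, 530 and 578 CPM in GSCs/spermatogonia (-2.85 ± 0.39). NHP2, of the same particle, had a step of -2.54 ± 0.87, and the box C/D proteins Nop56 and nop5 had steps of -2.26 ± 0.69 and -2.08 ± 0.48. Ribosomal protein genes moved in the same direction but by less. Of 90 cytoplasmic ribosomal protein genes, 86 had a negative step in 3 of 3 chinmoST libraries, between -1.90 and -0.31, while only 5 reached 2-fold in each and 2 were higher. Their median step was -1.31 in chinmoST, and in the wild-type libraries -2.15, -1.57 and -2.88 at 3-5 d, 6-8 d and 9-11 d. By contrast, the median of 71 mitochondrial ribosomal protein genes was 0.03 in CPM and -0.80 with TMM, with no member called.

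DNA replication genes were lower as a group, with 7 of 18 lower, none higher and a median of -1.52. The clamp loader subunit gene RfC4 had 58.9, 34.9 and 50.7 CPM in early spermatocytes and 280, 138 and 110 CPM in GSCs/spermatogonia of chinmoST (-1.77 ± 0.58). The S-phase transcription factor gene E2f1 had a step of -2.18 ± 0.98, which lost its call in deep cells, and the replicative helicase gene Mcm3 a step of -1.82 ± 0.46. PCNA, the sliding clamp, was not called (-0.86 ± 0.35), with 213, 156 and 118 CPM still present in early spermatocytes. Another 15 of the 33 listed genes lay below the filter. The mitotic division list as a whole did not share this shift. Only 2 of its 32 members were lower, the DNA topoisomerase gene Top2 (-1.73 ± 0.32) and the condensin subunit gene glu (-2.04 ± 0.37), and its median was 0.01 in CPM but -0.82 with TMM.

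In the piRNA pathway, which silences transposons in the germ line, 5 of 18 genes were lower and 1 was higher (median -0.97). The helicase gene vas had 25.3, 47.1 and 49.7 CPM in early spermatocytes and 218, 225 and 215 CPM in GSCs/spermatogonia (-2.46 ± 0.50). The Tudor protein gene qin (-2.02 ± 0.76) and the cochaperone gene shu (-2.0 ± 0.25) were also lower, and qin lost its call in deep cells. The opposite case was squ, with 194, 144 and 111 CPM in early spermatocytes and 38.7, 36.3 and 42.8 CPM in GSCs/spermatogonia (1.90 ± 0.48). It was higher in wild-type early spermatocytes as well, with steps of 2.02, 3.00 and 1.37. The checkpoint kinase gene lok was the only member lower among 13 meiotic cell cycle genes (-2.09 ± 0.86).

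The other strongly lower genes did not belong to the lists above. Df31, a histone-binding chromatin factor, had 115, 150 and 163 CPM in early spermatocytes and 1564, 1826 and 1569 CPM in GSCs/spermatogonia (-3.54 ± 0.25), and in deep cells its step was -5.84 ± 0.39. The mitochondrial single-strand DNA-binding protein gene mtSSB had 16.8, 12.2 and 18.2 CPM in early spermatocytes and 283, 145 and 112 CPM in GSCs/spermatogonia (-3.37 ± 0.69). The zinc finger gene klu had 0, 20.3 and 29.7 CPM in early spermatocytes and 64.0, 211 and 206 CPM in GSCs/spermatogonia (-3.89 ± 1.44). Its cyst lineage levels were 0.448, 1.83 and 7.77 CPM.

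Testis forms of the transcription machinery were higher in early spermatocytes of chinmoST. The tMAC list also holds genes of the general MuvB complex, such as lin-52 and E2f2. Of its 10 genes past the filter, 7, E2f2 among them, were higher and none was lower in chinmoST (median 1.87, against 36.5% higher and a median of 0.58 over all genes). Of 13 tTAF, TFIID and related genes 6 were higher and 3, Taf1, Taf12 and Tbp of the general complex, were lower. The median of that list, 0.69 in CPM and -0.15 with TMM, was close to that of all genes. All 13 higher members held in deep cells, and 1 of the 3 lower ones did. The clearest was sa, the testis form of Taf8, with 283, 109 and 112 CPM in early spermatocytes and 2.39, 0.717 and 0.991 CPM in GSCs/spermatogonia (6.85 ± 0.16). The GSC values rest on 5, 3 and 9 UMIs. In wild-type, sa had 262, 161 and 211 CPM in early spermatocytes and 15.0, 46.0 and 93.0 CPM in GSCs/spermatogonia (2.05 ± 1.75). In chinmoST the Taf5 form can (4.97 ± 0.19), the Taf4 form nht (3.18 ± 1.18), the Taf12 form Taf12L (1.97 ± 0.66) and the Taf6 form mia (1.40 ± 0.03) were higher as well. So was kmg, a zinc finger gene whose protein keeps tMAC from misplaced promoters (2.43 ± 0.38). In wild-type, 0 genes of either list were called higher in 3 of 3 libraries, against 12.6% of all genes. By library (3-5 d, 6-8 d and 9-11 d), the wild-type tMAC medians were 1.12, -0.73 and 1.09. Those of the tTAF list were 0.63, -1.14 and -0.32, with 1 gene called lower.

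Within the tMAC list, the Lin-52 paralog wuc had 269, 185 and 169 CPM in early spermatocytes and 14.8, 4.06 and 4.51 CPM in GSCs/spermatogonia (4.95 ± 0.69). The zinc finger subunit gene topi (3.76 ± 0.41), the DNA-binding subunit gene tomb (3.30 ± 0.64) and E2f2 (2.20 ± 0.28), which codes for a repressive E2F of the general complex, were next. aly, required for the whole program, had the smaller step of 1.53 ± 0.35. It was already found in the annotated GSCs/spermatogonia, at 36.3, 22.7 and 17.5 CPM, against 87.0, 59.3 and 66.5 CPM in early spermatocytes. Which of the GSCs/spermatogonia held it was not tested. The homeodomain genes vis (3.88 ± 1.22) and achi (1.25 ± 0.26) are near-identical tandem copies, so reads may be divided between them and their separate values are uncertain. Caf1-55, a subunit shared with general chromatin complexes, was not called (-0.58 ± 0.42).

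Several genes for the meiotic divisions and their translational control were also higher in early spermatocytes. Of 13 meiotic cell cycle genes, 7 were higher in chinmoST (median 1.87), against 36.5% of all genes. fest, whose protein acts with Rbp4 on cyclin B mRNA, had 847, 1071 and 1215 CPM in early spermatocytes and 62.6, 56.6 and 67.1 CPM in GSCs/spermatogonia (4.06 ± 0.26). Rbp4 had a step of 2.93 ± 0.45. The Cdc25 phosphatase gene twe had 89.8, 109 and 106 CPM in early spermatocytes and 21.0, 25.6 and 20.2 CPM in GSCs/spermatogonia (2.19 ± 0.17), while its mitotic counterpart stg went the other way (-3.22 ± 0.20) at levels below the filter, at most 33.9 CPM in any sum. bol, required for Twine protein, had a step of 2.50 ± 0.87, and the cap-binding protein gene eIF4E3 a step of 1.87 ± 0.64. CycB itself (2.06 ± 0.47) lost its call in deep cells. Syp, an RNA-binding protein gene, had a step of 3.32 ± 0.35, but its early spermatocyte levels of 140, 341 and 454 CPM lay below those of the cyst lineage (247, 576 and 550 CPM), and the part of cyst cell RNA in its step was not tested.

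**Figure D2:**
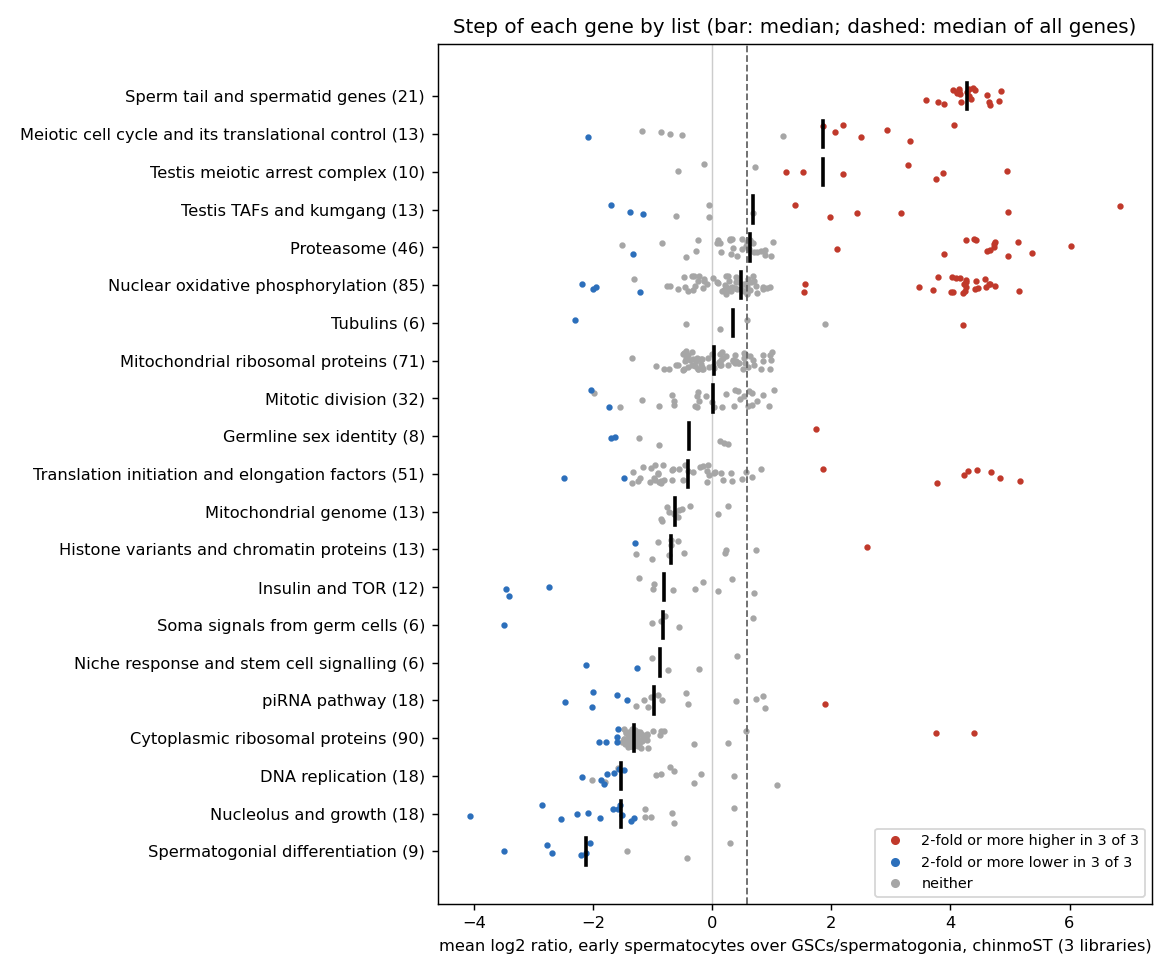
Mean step in chinmoST (log2 ratio, early spermatocytes over GSCs/spermatogonia, 3 libraries) of each gene, 1 row per list with its number of genes past the filter in brackets, a bar at the list median and a dashed line at the median of all genes (0.58). Sperm tail and spermatid genes sit furthest right (median 4.27), and spermatogonial differentiation genes furthest left (median -2.11).

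Testis paralogs were set beside their general counterparts in several complexes. Among 28 pairs of a testis-enriched gene and its general counterpart with both past the filter, assembled after values of these data were known, the testis paralog was higher in 25. The general paralog was higher in 0 pairs and lower in 7, which hold 5 different genes since Vha16-1 stands in 3 of them. These counts describe the chosen pairs only. In TFIID, Taf12 had 36.5, 23.5 and 39.2 CPM in early spermatocytes and 77.9, 119 and 130 CPM in GSCs/spermatogonia (-1.70 ± 0.64), opposite to Taf12L, while Taf4 (-0.04 ± 0.59) and Taf8 (0.69 ± 0.21) were not called. In MuvB, lin-52 was not called (-0.14 ± 0.15), and the general counterparts of aly and tomb, mip130 (-2.03 ± 0.70) and mip120 (-1.99 ± 0.87), lay below the filter.

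In the proteasome, 14 of 46 genes were higher, a smaller share than the 36.5% of all genes, and the ATPase gene Rpt3 was lower (-1.33 ± 0.27). All 14 higher genes carry the R or T suffix of testis paralogs, in some followed by a digit. Prosbeta2R2, a testis form of a catalytic subunit, had 138, 113 and 115 CPM in early spermatocytes and 1.43, 2.15 and 1.65 CPM in GSCs/spermatogonia (6.03 ± 0.37). The general Prosbeta2 had 502, 386 and 324 CPM in early spermatocytes and 508, 279 and 236 CPM in GSCs/spermatogonia (0.30 ± 0.27). The ATPase pair gave 4.97 ± 0.79 for Rpt6R and 0.42 ± 0.35 for Rpt6. Under TMM the steps of both general genes were negative (-0.53 for Prosbeta2 and -0.41 for Rpt6).

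The proton pump proteolipid genes showed the widest contrast. Vha16-3 had 370, 212 and 156 CPM in early spermatocytes and 2.39, 2.63 and 2.20 CPM in GSCs/spermatogonia (6.51 ± 0.55), and Vha16-5 had a step of 6.43 ± 1.04. Vha16-1, the general form, had 219, 311 and 279 CPM in early spermatocytes and 521, 649 and 596 CPM in GSCs/spermatogonia (-1.13 ± 0.10). The mitochondrial import pair behaved alike, with 5.57 ± 0.41 for Tim17b1 and -0.23 ± 0.47 for Tim17b. The beta tubulin genes exchanged rank. betaTub85D, the beta tubulin of meiotic spindles and sperm tails, had 1069, 772 and 1093 CPM in early spermatocytes and 64.0, 71.7 and 31.1 CPM in GSCs/spermatogonia (4.21 ± 0.86), whereas betaTub56D had 297, 244 and 326 CPM in early spermatocytes and 1894, 1312 and 1158 CPM in GSCs/spermatogonia (-2.30 ± 0.43).

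Of 85 nuclear genes for oxidative phosphorylation, 25 were higher in chinmoST and 4 were lower (median 0.48 in CPM, -0.36 with TMM). This share is smaller than the 36.5% of all genes. The symbols of 22 of the 25 end in the L of a testis paralog, in some followed by a digit. ATPsynbetaL, a paralog of the catalytic ATP synthase subunit, had 253, 241 and 150 CPM in early spermatocytes and 9.08, 7.41 and 9.36 CPM in GSCs/spermatogonia (4.59 ± 0.53). The ribosomal paralogs RpL10Aa (3.75 ± 1.07) and RpS28-like (4.40 ± 0.34) were the 2 higher ribosomal protein genes, and eIF3g2, a testis form of a translation initiation factor subunit, had a step of 5.16 ± 0.93. Of 51 translation initiation and elongation factor genes, 8 were higher and 2 were lower (median -0.41). The proteasome list as a whole had a median of 0.64 in CPM and -0.19 with TMM, and the 13 genes of the mitochondrial genome, with none called, a median of -0.63.

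**Figure D3:**
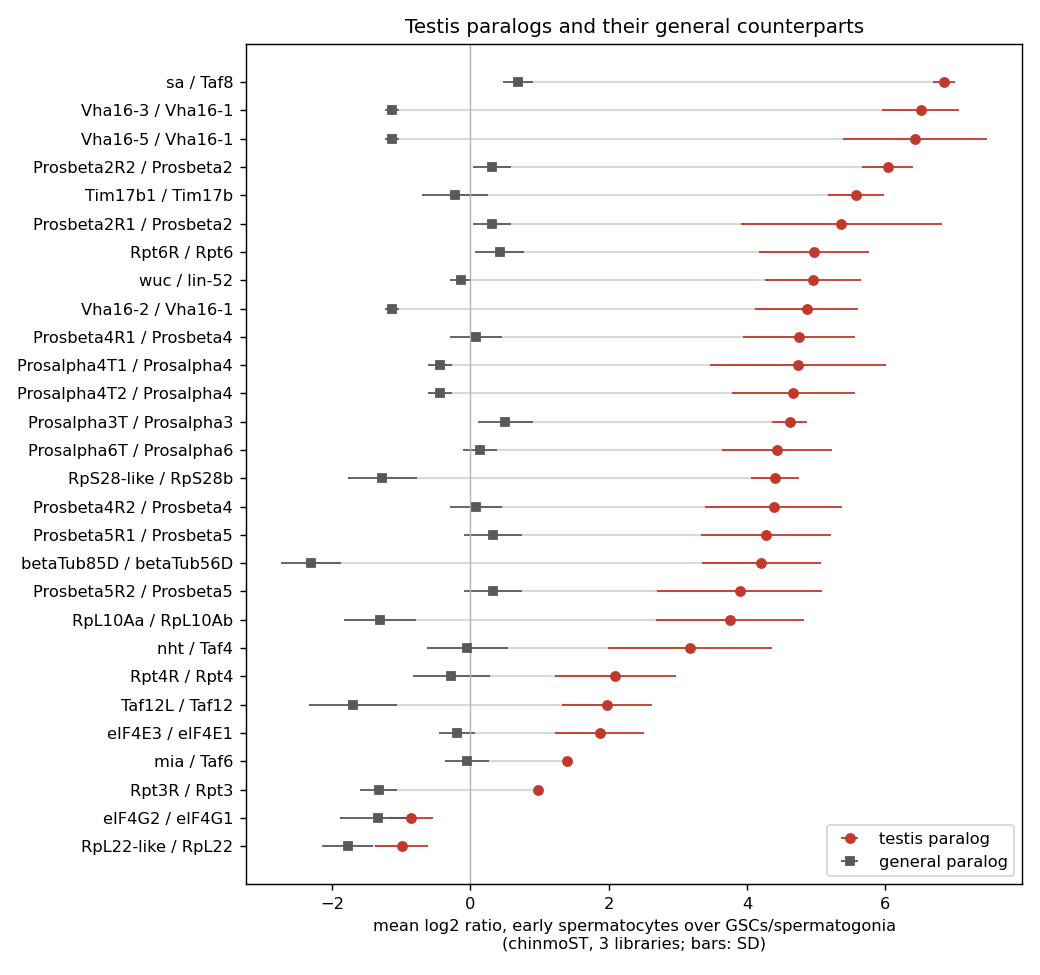
Mean step in chinmoST (log2 ratio, early spermatocytes over GSCs/spermatogonia, error bars SD of 3 libraries) for 28 pairs, with the testis paralog as a circle and its general counterpart as a square on the same row. The circle lies far right of the square for Vha16-3 (6.51, against -1.13 for Vha16-1) and sa (6.85, against 0.69 for Taf8), and nearer to it for Rpt3R (0.98, against -1.33 for Rpt3).

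All 21 sperm tail and spermatid genes past the filter were higher in early spermatocytes, with mean steps between 3.60 and 4.86. Mst77F, a chromatin protein gene of condensing spermatids, had 2416, 1099 and 1582 CPM in early spermatocytes and 118, 80.1 and 26.8 CPM in GSCs/spermatogonia (4.67 ± 1.09). The protamine gene ProtA had a step of 4.61 ± 1.18, with reads that its near-identical neighbour ProtB may share, and fzo, a mitofusin gene of spermatids, a step of 3.80 ± 0.79. These transcripts were also found in cells that should lack them. In the cyst lineage Mst77F stood at 896, 609 and 382 CPM, and over the 21 genes the early spermatocyte level was 1.37 to 8.63 times the cyst level, with a median of 3.36. The same ratio was 4.59 to 44.8 (median 16.8) for the 7 higher genes of the tMAC list and 5.86 to 56.3 (median 16.4) for the 6 higher genes of the tTAF list. In deep cells the 21 spermatid genes were still called higher, but Mst77F had 2224, 911 and 241 CPM in deep early spermatocytes and 118, 34.9 and 21.2 CPM in deep GSCs/spermatogonia, lower than over all cells at 9-11 d. Cyst lineage cells had median depths of 2051, 3232.5 and 2749 UMIs. How much of the spermatid signal was free RNA was not tested.

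Over all 2266 higher genes, 1612 (71.1%) were at least 2-fold above the cyst lineage in 3 of 3 chinmoST libraries and 94 were at or below it. The same share over all genes past the filter was not computed, and the call itself favours genes with a high early spermatocyte level. In the next stage, 1788 (78.9%) of the 2266 were higher in intermediate than in early spermatocytes in all 3 libraries and 125 (5.52%) were lower, against 35.1% and 39.1% of all genes past the filter. Of the 437 lower genes, 323 (73.9%) were lower in intermediate spermatocytes and 5 (1.14%) were higher. Both comparisons share the early spermatocyte sums. Among individual genes with at least 100 CPM in early spermatocytes, cocoon had the largest step (7.13 ± 2.23), with 157, 90.1 and 129 CPM in early spermatocytes and 0, 2.87 and 0.881 CPM in GSCs/spermatogonia. CG3927 had 511, 199 and 153 CPM in early spermatocytes and 3.82, 3.58 and 1.65 CPM in GSCs/spermatogonia (6.41 ± 0.62).

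Smaller germline groups had few called members. Of 8 genes of germline sex identity, tra2, a splicing factor gene required for sperm formation, was higher (1.74 ± 0.18), and fl(2)d (-1.63 ± 0.20) and Jarid2 (-1.70 ± 0.03) were lower, neither in deep cells. Of 13 histone variant and chromatin genes, the linker histone gene BigH1 was higher, with 311, 205 and 181 CPM in early spermatocytes and 128, 31.3 and 13.0 CPM in GSCs/spermatogonia (2.60 ± 1.25). Only 2 of 12 Y-linked fertility genes passed the filter. ARY had 44.9, 18.7 and 22.5 CPM in early spermatocytes and 2.87, 1.67 and 1.43 CPM in GSCs/spermatogonia (3.75 ± 0.29), and CCY had a step of 3.91 ± 1.92. The CCY step rests on 3, 16 and 61 UMIs in early spermatocytes and 1, 13 and 4 UMIs in GSCs/spermatogonia of chinmoST. The wild-type 6-8 d GSC sum, which also enters the filter, held 7 UMIs of CCY in 2 cells, with 6 in 1 cell. None of 3 dosage compensation genes was called (median 0.25 in CPM, -0.59 with TMM), and of 6 germ cell genes for signals to the soma only zpg was lower. Of 7 genes that the study singled out in these samples, and which are therefore not independent of them, the spermatogenesis genes Pif1A and bol and the tMAC gene wuc were higher, and the piRNA gene aub was lower. The translation genes eIF4A and sta were not called, and the oocyte genes ovo and otu lay below the filter.

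By chromosome, the shares of the Y and of the fourth changed most in chinmoST. The Y gave 0.0196%, 0.0137% and 0.0227% of UMIs in early spermatocytes and 0.0021%, 0.0038% and 0.0041% in GSCs/spermatogonia (step of the share 2.53 ± 0.71), with 3 of its 4 genes past the filter higher. The fourth gave 0.573%, 0.612% and 0.613% of UMIs in early spermatocytes and 0.982%, 0.977% and 0.974% in GSCs/spermatogonia of chinmoST (step of the share -0.71 ± 0.06). One ribosomal protein gene, RpS3A, contributed to this, most at 3-5 d. Without it the steps went from -0.78, -0.67 and -0.67 to -0.28, -0.56 and -0.42. The median step of its 46 genes was -0.48, against 0.44 for the X and 0.86 for the left arm of chromosome 2. The X gave 11.5%, 13.6% and 13.6% in early spermatocytes and 12.1%, 14.9% and 15.7% in GSCs/spermatogonia (-0.13 ± 0.07), against steps of -0.11, -0.34 and -0.16 in wild-type. Differences of these steps between genotypes could not pass an adjusted p of 0.05 (exact two-sided permutation tests of 3 against 3 libraries, smallest possible p = 0.1, which becomes 0.4 after adjustment over 8 tests). That smallest p was reached by the fourth chromosome, with steps of -0.78, -0.67 and -0.67 in chinmoST and -1.06, -1.48 and -0.98 in wild-type. It was also reached by the mitochondrial genome, with steps of -0.56, -0.72 and -0.30 in chinmoST and -0.96, -1.51 and -2.12 in wild-type. In both, every chinmoST step lay above every wild-type step. For the fourth this did not hold without RpS3A, where wild-type steps of -0.55, -1.37 and -0.38 overlapped those of chinmoST.

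In wild-type, 784 genes (12.6%) were higher and 782 (12.6%) were lower in early spermatocytes in 3 of 3 libraries, and without the 6-8 d library 1735 were higher and 934 lower. Called both times were 744 higher genes (32.8% of the chinmoST calls and 94.9% of the wild-type calls) and 293 lower genes (67.0% and 37.5%), with 2 genes called opposite ways. Without wild-type 6-8 d, 1581 higher and 327 lower genes were called in both and 3 opposite ways. In the best sampled wild-type library, at 3-5 d, 2123 (93.7%) of the genes higher in chinmoST and 408 (93.4%) of those lower were at least 2-fold the same way, and 22 and 8 had the opposite sign. Of all 6209 genes past the filter, 2553 were at least 2-fold higher and 1278 at least 2-fold lower in that library. The 5 early spermatocyte markers had a median step of 2.93 in chinmoST, and of 0.96, -0.25 and 0.70 in the wild-type libraries at 3-5 d, 6-8 d and 9-11 d. Rbp4 had 489, 146 and 237 CPM in early spermatocytes and 244, 138 and 325 CPM in GSCs/spermatogonia of wild-type, so that the ranges of the types overlapped.

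**Figure D4:**
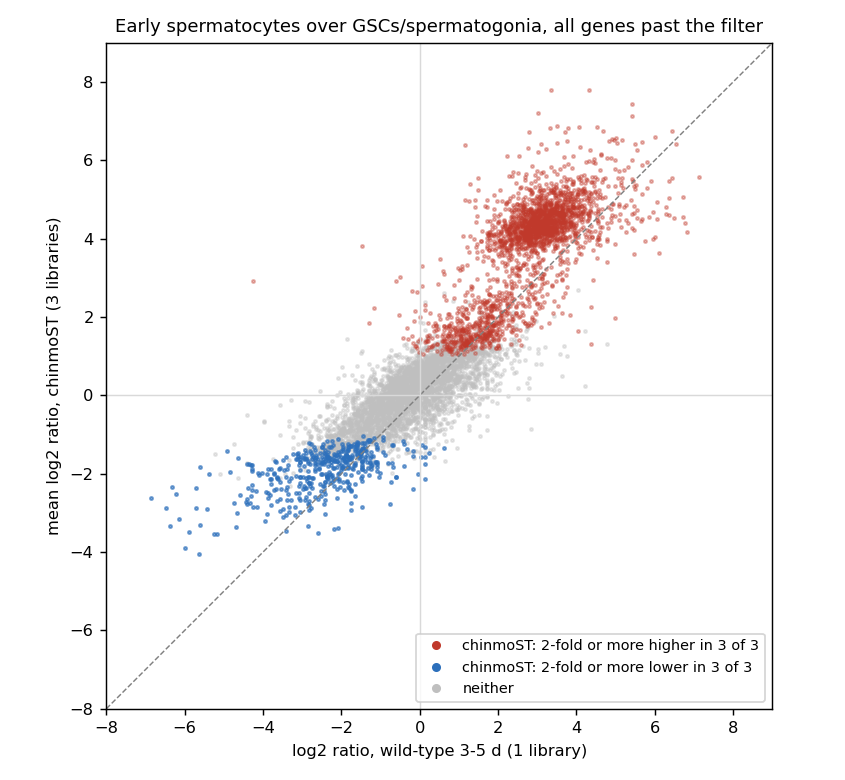
Step of each of the 6209 genes past the filter, with the mean of 3 chinmoST libraries on the vertical axis and wild-type 3-5 d (1 library) on the horizontal axis, both log2 ratios of early spermatocytes over GSCs/spermatogonia, coloured by the chinmoST call, with a dashed line of equality. Of the genes higher in chinmoST, 93.7% are at least 2-fold higher in wild-type 3-5 d, against 2553 of all 6209 genes.

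Whether the step itself differed between genotypes was tested with a type-by-genotype term in edgeR, with the library as a block and Benjamini-Hochberg adjustment. Of 7521 genes tested, 76 (1.01%) had a higher step in chinmoST and 5 (0.0665%) a lower one at an adjusted p under 0.05. Single libraries decided this count of 81. It was 23 without wild-type 6-8 d, 49 without wild-type 3-5 d, 26 without chinmoST 6-8 d and 15 without chinmoST 9-11 d, and it was 0 without the library block (edgeR, 641 genes at an unadjusted p under 0.05). For nht the early spermatocytes of the genotypes were close and the GSCs/spermatogonia were not. It had 216, 145 and 148 CPM in early spermatocytes of chinmoST and 195, 135 and 138 CPM in those of wild-type, but 60.2, 12.2 and 8.48 CPM in chinmoST GSCs/spermatogonia and 130, 276 and 46.5 CPM in wild-type ones. The step was 2.42 higher in chinmoST for nht (edgeR adjusted p = 0.013), 2.75 for wuc (edgeR adjusted p = 0.0092), 3.14 for sa (edgeR adjusted p = 0.029) and 2.51 for fest (edgeR adjusted p = 0.0074). None of these 4 genes passed without wild-type 6-8 d, where the edgeR adjusted p was 0.18 for nht, 0.086 for wuc, 0.15 for sa and 0.077 for fest. Nor did any of them pass without wild-type 3-5 d (edgeR adjusted p of 0.059 to 0.22), without chinmoST 6-8 d (0.098 to 0.14) or without chinmoST 9-11 d (0.095 to 0.30), and sa did not without wild-type 9-11 d (0.090). The wild-type GSC sums at 6-8 and 9-11 d came from 6 and 4 cells. They held 6 and 1 UMIs of nht, 3 and 1 of wuc, 1 and 2 of sa and 27 and 8 of fest, and the part of sparse sampling in these differences was not tested.

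CG3491 had 58.9, 116 and 136 CPM in early spermatocytes of chinmoST and 45.2, 82.2 and 131 CPM in those of wild-type, with 0.956, 3.35 and 3.08 CPM in chinmoST GSCs/spermatogonia and 18.3, 276 and 93.0 CPM in wild-type ones (difference 4.59, edgeR adjusted p = 2e-06). It passed without any 1 library, and without wild-type 6-8 d the difference was 3.79 (edgeR adjusted p = 0.0081). Its wild-type GSC values rest on 11, 6 and 2 UMIs in 4, 3 and 1 cells, and the part of sparse sampling was not tested. Pdk1, the kinase that links the insulin receptor to Akt, had the opposite pattern, with 42.1, 52.0 and 72.2 CPM in early spermatocytes of chinmoST and 74.2, 109 and 112 CPM in those of wild-type (difference -2.83, edgeR adjusted p = 0.016). Its edgeR adjusted p was 0.051 without wild-type 6-8 d, 0.16 without chinmoST 6-8 d and 0.20 without chinmoST 9-11 d. Its level in GSCs/spermatogonia was 23.9, 89.1 and 104 CPM in chinmoST and 19.9, 0 and 0 CPM in wild-type. There, 0 of 21736 and 0 of 21506 UMIs allow up to 138 and 139 CPM, so those zeros cannot place Pdk1 below chinmoST. At 3-5 d alone, the Pdk1 steps were 0.85 in chinmoST and 1.85 in wild-type.

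**Figure D5:**
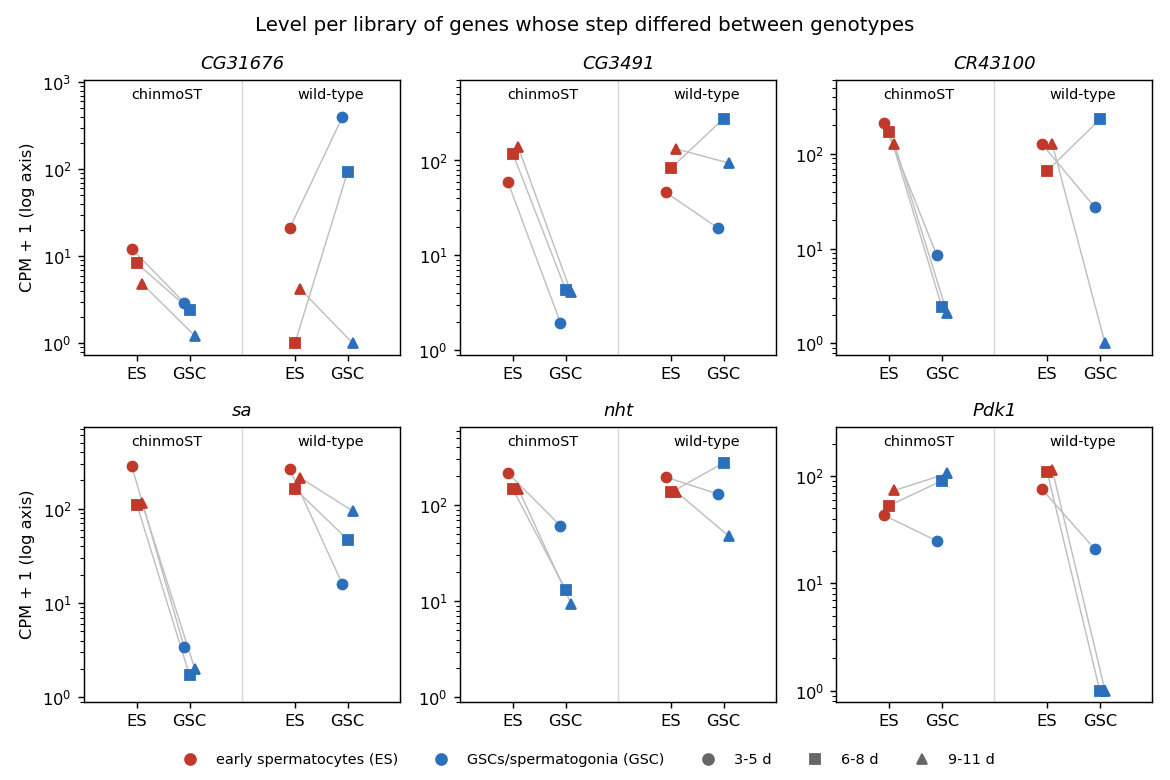
CPM plus 1 (log axis) of 6 genes whose step differed between genotypes, in early spermatocytes (ES) and GSCs/spermatogonia (GSC), chinmoST left of wild-type, 1 marker per library. For sa and nht the early spermatocyte values of the 2 genotypes overlap, and the GSC values of wild-type reach 93.0 and 276 CPM against at most 2.39 and 60.2 CPM in chinmoST.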

How the data were processed

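Testes of chinmoST and wild-type males were profiled by droplet single-cell RNA sequencing (10x Genomics 3′, v3 chemistry). Per the labels, the authors used Cell Ranger 4.0.0 and Seurat 3.2.2 and 3.0 with genome build dm6, and the study kept cells with 200 to 6000 genes and under 10% mitochondrial UMIs. No doublet caller was named beyond the upper limit on genes. The deposited matrices hold raw UMI counts per gene and barcode, not normalized, and a deposited table gives each kept cell its library, cluster and cell type. Of the 6 matrices, 4 hold exactly 5000 barcodes. No column of other samples was left unused (0 columns).

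UMI counts of early spermatocytes and of GSCs/spermatogonia were summed per library, giving 12 sums. The step was computed in Python 3.11 (numpy 2.4.6, pandas 2.3.3). Library sizes of the sums are given in the text, and 3 UMIs were taken as the floor that a count of 0 allows, for counting error only. The type-by-genotype term was fitted with edgeR 4.0.16 (quasi-likelihood, TMM, filterByExpr) in R 4.3.3, with the library as a block because both types of a pair came from 1 library, so the pairing comes from the design. On simulated counts of 7233 genes for this comparison, 28 of 186 genes changed 4-fold were called, and no other gene was. The simulation gave every gene the same relative spread and did not model UMIs concentrated in few cells. Its lack of false calls therefore does not carry over to the real sums. DESeq2 1.42.0 served as an alternative, and exact permutation tests were run with scipy 1.17.1. For the step a fit was made only as an alternative, since the types were defined from the same genes.

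The gene lists, and the rule for named genes, were chosen with earlier results of these data known. The rule took, from each list, up to 6 genes with the largest absolute step and up to 2 uncalled genes with the highest CPM, then the 15 largest and 15 smallest steps among genes with at least 100 CPM, and up to 10 genes each way whose step differed between genotypes. The genes tut, Taf1, Tbp, Taf5, Taf8, mia, achi, stg, eIF4E3, lin-52, mip130, mip120, Prosbeta2, Rpt6, Rpt3R, Rpt3, Vha16-1, Tim17b1, Tim17b, ovo, otu and RpS3A fell outside this rule and were chosen after their values were seen. Alternatives were TMM scaling, filters, priors, per-cell means, a common UMI minimum, the main cluster of each type, deep cells, other tests and leaving out each library. Of 17612 gene identifiers, 17536 matched a symbol. Promoter sequences were not analysed here. Up to 255 barcodes of the deposited matrices, from kept cells or not, were shared between 2 libraries.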

Additional observations from a re-analysis of the deposited data

Results flagged for a closer look

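The step differed between chinmoST and wild-type for 76 genes with a higher and 5 genes with a lower step in chinmoST (edgeR, adjusted p under 0.05), and the 10 largest higher and all 5 lower differences are given on the log2 scale. CG31676 had the largest difference, 7.01 (edgeR adjusted p = 1.4e-10), with 4 of 18 wild-type GSCs/spermatogonia at 3-5 d holding all of that sum's 237 UMIs, between 36 and 97 UMIs each. In the chinmoST GSCs/spermatogonia it had 4, 6 and 2 UMIs, and in the cyst lineage of chinmoST it stood at 215, 279 and 213 CPM. The study used CG31676 and Wnt4 as markers of early cyst cells. Together they summed to 183, 108 and 239 CPM in the cyst lineage of wild-type. The difference was 4.60 for lncRNA:CR43282, 4.59 for CG3491, 4.50 for the innexin gene Inx6, 4.48 for CG14545, 4.31 for CR43100, 4.27 and 4.23 for the arginine methyltransferase genes Art6 and Art2, 4.18 for the Y-linked CCY and 4.09 for the ribosomal RNA precursor pre-rRNA:CR45856, a repeated gene whose reads cannot be placed to 1 copy. CG14545 was lower in early spermatocytes in both genotypes, with steps of -2.52 ± 2.0 in chinmoST and -5.52 ± 0.67 in wild-type. The difference was -4.01 for FBgn0010877, -2.83 for the atlastin gene atl, -2.83 for Pdk1, -2.68 for the G protein gene Galphas and -2.62 for CG7742. Without wild-type 6-8 d, the difference was 1.48 for CCY (edgeR adjusted p = 0.81), 0.66 for pre-rRNA:CR45856 (edgeR adjusted p = 0.86) and 2.92 for Inx6 (edgeR adjusted p = 0.57). Of 23 genes with such a difference that were followed across settings, 9 passed without wild-type 6-8 d, 4 without chinmoST 9-11 d and 7 with wild-type 3-5 d as the only wild-type library. What separates the genotypes in these genes was not tested.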

How the results depend on the processing

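In chinmoST, 2266 genes were higher, and the count was 5768 with no filter, 839 with a mean of at least 100 CPM and 1469 with per-cell means (2332 to 2408 without 1 library). The 437 lower genes became 1306 with TMM, 756 with no filter, 105 at 100 CPM, 73 at 4-fold, 280 in deep cells, 2433 by paired edgeR and 2151 by paired DESeq2, and 508 to 662 without 1 library, the highest without 3-5 d. In wild-type, 784 higher genes became 307 at 100 CPM, 146 with 2 UMIs added, 164 at 4-fold, 1704 by paired edgeR, 1373 by paired DESeq2 and 2553 in the 3-5 d library alone, and 837 to 1735 without 1 library, the highest without 6-8 d. The 782 lower genes became 1938 with no filter, 262 at 100 CPM, 384 with per-cell means, 234 at 4-fold and 1278 at 3-5 d alone, and 934 to 1192 without 1 library, the highest without 3-5 d. Fewer or more genes tested is part of the filter settings, and for the rest the cause was not tested.

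The pairing of types by library mattered for the test between genotypes. Without the replicate block edgeR called 0 of 7521 genes (641 at an unadjusted p under 0.05), against 81 with it. DESeq2 called 30, the 3-5 d library as the only wild-type one gave 21, and leaving out 1 library gave 15 to 105. Other settings kept the count within 1.5 times of 81. Of the differences of chromosome shares between genotypes, which the design could not call, signs turned with per-cell shares for 2L (0.0355), 3L (0.0282), 3R (0.0182) and X (-0.0629), and for 3L also without the mitochondrial genome (0.0018). Over the libraries left out, the difference ran between -0.0608 and 0.0281 for 2R, -0.0423 and 0.0071 for 3L, -0.0042 and 0.1137 for X and -0.1347 and 2.5139 for Y, turning sign without wild-type 6-8 d for 2R, X and Y and without wild-type 9-11 d for 3L.

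No called step of a named gene changed sign under the settings run for it. Leaving out 1 library could not change that sign, because a call required every library of the genotype to differ the same way. Of 102 steps, 71 moved by more than their SD with TMM and 27 in deep cells. None did when 1 library was left out, but that was fixed in advance. Dropping a library always shifts a mean by less than the SD of the same libraries, so this setting tests nothing here. The medians of 22 of 24 lists moved with TMM, and those of the tTAF, mitotic, mitochondrial ribosomal, oxidative phosphorylation, proteasome, tubulin (0.36 and -0.48 with TMM), dosage compensation and study-named (0.20 and -0.63) lists changed sign. The 6 and 4 wild-type GSCs/spermatogonia at 6-8 and 9-11 d limit every wild-type statement.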
